A study of Oryza sativa with 18 samples.

Results

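Circular RNAs (circRNAs) whose back-spliced ends lie from 1000 to just under 5000 bases apart on the rice genome, called mid-span circRNAs below, were examined in young panicles of the photo- and thermosensitive genic male sterile (PTGMS) rice line Wuxiang S (WXS). Each circRNA in the deposited table is named by its chromosome, start and end on the MSU v7.0 genome, and its span is the end minus the start. A circRNA was taken when its span lay in this range and its back-spliced junction reads summed to at least 5 over the 18 libraries. This gave 593 of 9994 circRNAs (5.93%), which is 36.2% of all circRNAs with at least 5 reads. The circRNAs were thus chosen by their span and by their summed reads, the same reads described below, so their abundance is a description and not a finding. A further 2500 circRNAs in this span range had fewer than 5 reads.

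The libraries came from 6 groups with 3 biological replicates each. FP2, FP3 and FP4 are WXS (F) panicles, from plants that were moved to a climate incubator when the panicle measured about 1 cm and were kept there for 3 to 4 weeks at about 21 °C with 12 h of light, under which the line is male fertile. SP2, SP3 and SP4 are WXS (S) panicles, from plants left in the field at daily means above 24 °C and days longer than 12 h, under which the same line is male sterile. P2 is the stage of pollen mother cell (PMC) formation, P3 that of meiosis and P4 that of microspore formation. Fertility, temperature, day length and field or incubator change together between WXS (F) and WXS (S), so their parts cannot be told apart. A panicle holds many cell types, and fewer cells of a type cannot be told apart from less RNA per cell.

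A circRNA forms when the spliceosome joins a downstream splice donor to an upstream acceptor, a step called back-splicing, which closes the RNA into a ring without free ends. Rings resist exonucleases, and the read that crosses the back-spliced junction is what separates them from the linear RNA of the same gene. In plants, circRNAs arise from exons, introns and intergenic sequence, and 1 gene can give several rings that share a splice site. Some circRNAs in animals and plants bind microRNAs or alter splicing of their gene, while for most no function is known.

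Primers show how such a ring is told from linear RNA. A divergent pair points away from each other on the linear gene, so a product needs the joined junction. The study designed such pairs for 6 of the 593 circRNAs, with primers of 20 to 23 bases. Those of 4 circRNAs are printed 5′ to 3′ because the results below turn on 3 of them and the other is the circRNA whose host gene is known. Capitals mark a divergent primer whose reverse complement was also used as a primer of the convergent pair, which points inward and copies linear RNA as well. This held for 6 of the 12 divergent primers, both primers of 3 circRNAs.
Chr5:3609020|3611174 forward: tcaggtctaccgcaaacagc
Chr5:3609020|3611174 reverse: ctctcgtgcagcaaatgagc
Chr9:22408734|22411666 forward: ggtccctgaggtaatttgtcct
Chr9:22408734|22411666 reverse: ttgcagcaacacagtcattcg
Chr11:9166935|9170120 forward: gagaaacatatgcagcgagca
Chr11:9166935|9170120 reverse: caatgctacatggtcatagggga
Chr9:10839626|10840970 forward: GCCAGAAAGGACAAGGCACA
Chr9:10839626|10840970 reverse: AGCCTCAGTTCCAACAACCT

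Junction reads were few, at 4066 to 8686 per library, and were lowest in SP3-2 (4066), SP4-2 (4226) and SP4-1 (4439). The table holds no count of 1, so a 0 can stand for 0 reads or 1 read, and a count of 0 allows up to 0.0345% to 0.0738% of a library's junction reads (3 reads, counting error only). Coding-gene counts ran from 30577833 to 52222861 per library. All 12 floral genes looked for, which are MADS-box genes and DL, were above 0 in each library. Summed over 10 tapetum and meiocyte genes, expression was 270.4 to 317.3 CPM in FP3 against 588.6 to 652.7 in SP3, and 191.2 to 217.3 CPM in FP4 against 495.9 to 515.8 in SP4. Over 4 green leaf genes it was 161.8 to 170.4 CPM in FP3 and 128.5 to 171.0 in SP3, which overlapped, and 783.0 to 943.6 CPM in FP4 and 426.2 to 526.2 in SP4. The sum of the floral genes was 941.3 to 988.3 CPM in FP3 and 1409.5 to 1682.9 in SP3. All 10 anther and all 4 leaf genes were above 0 in each library. At P2 the anther sum was 387.8 to 408.3 CPM in FP2 and 455.3 to 475.4 in SP2. The floral sum was 949.5 to 975.7 CPM in FP2 and 1041.6 to 1274.0 in SP2. At P4 it was 1286.1 to 1402.9 CPM in FP4 and 1475.1 to 1561.2 in SP4. Several genes went against their sum, so the sums do not describe each gene. Of the anther genes, EAT1 was 34.81 to 41.03 CPM in FP4 and 19.62 to 26.03 in SP4. PAIR1 was 35.06 to 41.42 CPM in FP2 and 16.56 to 25.47 in SP2, and PAIR3 also went against the sum at P2. Of the floral genes, OsMADS6 was 72.21 to 77.38 CPM in FP2 and 53.56 to 59.82 in SP2. Of the leaf genes, RBCS (LOC_Os12g17600) was 13.21 to 14.57 CPM in FP4 and 31.12 to 36.62 in SP4. The anther and floral sums thus differed between the conditions at each stage. The leaf sum differed at P4 and at P2 (86.2 to 88.9 CPM in FP2, 65.6 to 83.8 in SP2). Each of the sums also differed between stages, as between FP3 and FP4. The part of these sums in the differences below was not tested.

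The 593 mid-span circRNAs lay on all 12 chromosomes, with 98 on chromosome 3, 92 on chromosome 1 and 81 on chromosome 2. At the lower border set by the rule, Chr3:3526454|3527454 at a span of 1000 bases (6 reads) was inside and Chr3:135489|136488 at 999 bases (14 reads) outside. At the other border Chr2:19035941|19040940, 1 base short of 5000 (85 reads), was inside and Chr2:11200476|11205488 at 5012 bases (15 reads) outside. At the read limit, 78 circRNAs had exactly 5 reads, and 374 others in the span range had 4.

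Short spans prevailed in the class. The median span was 1968 bases, and 299 circRNAs spanned fewer than 2000 bases, 152 spanned from 2000 to under 3000, 86 from 3000 to under 4000 and 56 from 4000 on. The length that the authors give for the ring itself was shorter than the span for most, with a median of 916 bases. It equalled the whole genomic interval for 129 circRNAs (21.8%, end minus start plus 1, with no tolerance), was shorter for 462 and longer for 2. CircRNAs whose given length equalled the interval had a median of 11 reads, those with a shorter length 8.5. The ring length is the authors' value throughout, since the counts used here hold junction reads only.

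A few circRNAs carried most of the reads. The 593 circRNAs held 24603 of the 126053 junction reads (19.5%), and 10 of them held 48.1% of these. In contrast, 315 (53.1%) had 5 to 9 reads in all, 213 had 10 to 49, 29 had 50 to 99 and 36 had at least 100. The median circRNA had reads in 3 of the 18 libraries. Reads were seen in all 18 libraries for 16 circRNAs (2.7%), which held 47.3% of the reads, and in a single library for 71 (12.0%).

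**Figure D1:**
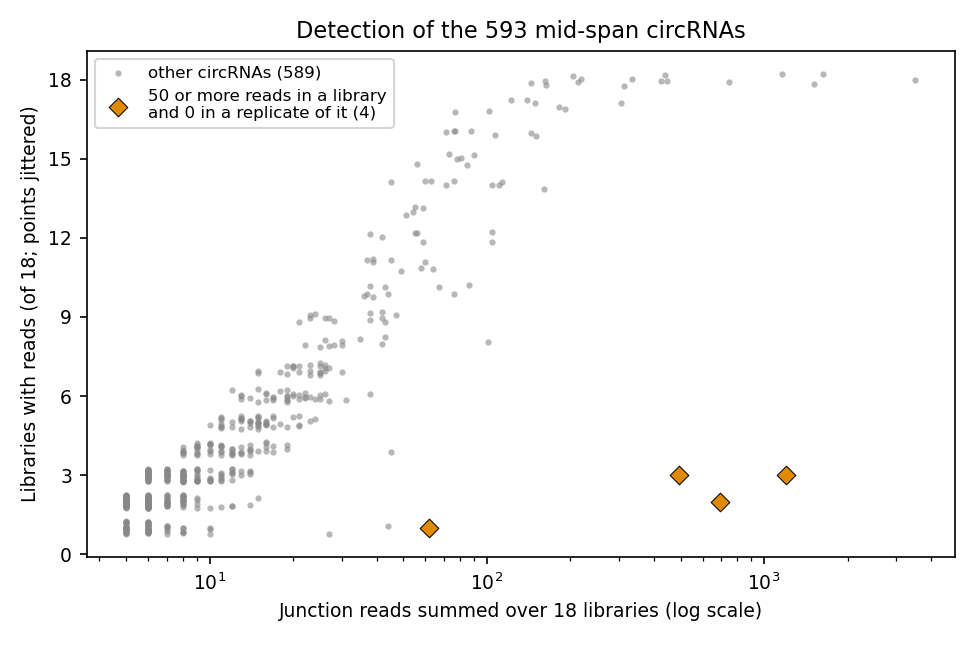
Each point is 1 of the 593 mid-span circRNAs, placed by its junction reads summed over the 18 libraries (log scale) and the number of libraries with reads. Most circRNAs with many reads were seen in nearly all libraries, while 4 circRNAs (diamonds) had at least 50 reads in a library and 0 in a replicate of it, with 62 to 1202 reads in 1 to 3 libraries.

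The most abundant mid-span circRNA, Chr5:20738743|20740923, took 14.3% of the reads of the class. It spans 2180 bases and has a ring length of 332 bases. It had 276, 240 and 303 reads in FP2, against 170, 189 and 216 in SP2. At P3 it had 286, 249 and 234 reads in FP3, against 174, 108 and 128 in SP3. At P4 it had 162, 221 and 185 reads in FP4, against 115, 101 and 154 in SP4. It was thus found in each library, and the groups did not overlap in reads at any stage. Scaled to 10000 junction reads of a library, its level was 390 ± 11 in FP2 and 233 ± 17.8 in SP2 (SD, n = 3 each), and 257 ± 38.3 in FP4 and 243 ± 14.2 in SP4, where the scaled groups overlapped. Over all stages its log2 fold change was 0.52 ± 0.20 (SE), under the fold threshold of 1 used here.

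The next in abundance behaved likewise in being found in each library. Chr2:34339450|34341478 had 126, 145 and 112 reads in FP4, against 62, 52 and 61 in SP4, and 1629 reads in all. Chr8:17730586|17731653 had 64, 74 and 84 reads in FP4, against 35, 26 and 41 in SP4, and 1516 reads in all. Their log2 fold changes over all stages, 0.54 ± 0.26 and 0.65 ± 0.26 (SE), stayed under the fold threshold. Chr8:14113159|14114776 (447 reads) and Chr10:20281716|20286269 (438 reads) were also found in all 18 libraries and passed no test of WXS (F) against WXS (S).

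Replicates shared only part of the class. Of the mid-span circRNAs with reads in a group, 20.6% in FP2, 17.2% in SP2, 21.4% in FP3, 16.3% in SP3, 16.7% in FP4 and 18.7% in SP4 were seen in all 3 replicates, and 53.9% to 64.3% in 1 replicate only. Those seen in all 3 carried 49.4% to 71.5% of the group's reads in the class. A pair of replicates shared a median of 32.25% of the circRNAs seen in either (range 26.0% to 39.3%, 18 pairs). Libraries of the same condition at another stage shared 29.95% (54 pairs), and libraries of the same stage in the other condition 25.7% (27 pairs). Among the 375 circRNAs with reads in at least 3 libraries, the median correlation of log2(CPM + 1) between replicates was r = 0.385 and rho = 0.415, as a description over circRNAs of libraries that differ in depth.

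High counts did not always repeat. Of the circRNAs with at least 10 reads in a replicate, 4 of 38 in FP2, 13 of 44 in SP2, 5 of 39 in FP3, 13 of 43 in SP3, 5 of 26 in FP4 and 4 of 20 in SP4 were at 0 in another replicate of the group. For 4 circRNAs the gap was large. Chr3:10395392|10399398 had 362 reads in SP2-1, 523 in SP2-2 and 317 in SP4-3, and 0 in the other 15 libraries. Chr1:40063437|40064961 had 467 reads in SP2-1 and 227 in FP3-2 only. Chr2:6719696|6724512 had 131 reads in FP2-3, 174 in SP2-3 and 189 in SP3-1 only, and Chr7:21590433|21592836 had 62 reads in FP3-2 only. All 4 have a ring length equal to the whole interval, and their reads follow single libraries and not groups.

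Chr2:6719696|6724512 overlaps a longer circRNA outside the class. Chr2:6718882|6723934, with a span of 5052 bases, shares 4238 bases of its interval and had 138 reads in FP3-1, 104 in FP3-3 and 276 in SP3-3. No library held reads of both, so the pair split 6 libraries between them. Such signals took a large share of single libraries. Chr3:10395392|10399398 made up 29.5% of the mid-span reads of SP4-3 and 26.4% of those of SP2-2, and Chr1:40063437|40064961 25.9% of those of SP2-1.

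Fewer mid-span circRNAs had reads at P4 and in the shallow libraries. At P2, 200, 171 and 197 were seen in the FP2 libraries and 128, 181 and 177 in the SP2 libraries. At P3, 215, 198 and 190 were seen in FP3, and 183, 88 and 161 in SP3. At P4, 138, 163 and 155 were seen in FP4, and 74, 79 and 111 in SP4. Without regard to depth, the groups thus overlapped at P2 and not at P3 or P4. Over the whole table, a library held reads of 909 to 1116 circRNAs in FP2 and 795 to 1129 in SP2. It held 1023 to 1180 in FP3 and 546 to 1085 in SP3, and 822 to 888 in FP4 and 545 to 662 in SP4. Depth moved with these numbers. When each library was reduced to the smallest total of 4066 reads by calculation, the expected numbers were 173.47 ± 10.54 in FP2 and 143.07 ± 23.36 in SP2 (SD, n = 3 each). Their ranges were 161.8 to 182.3 and 116.1 to 157.0. At P3 they were 178.6 ± 9.31 in FP3 (170.8 to 188.9), with 88.0 to 167.4 in SP3. At P4 they were 126.9 to 147.2 in FP4 and 73.8 to 102.4 in SP4. The groups did not overlap at any stage at this depth. With counts under 2 reads also set to 0, they overlapped at P3 (118.0 to 124.1 in FP3, 88.0 to 123.8 in SP3) and not at P2 or P4. The share of junction reads taken by the class came to 22.0% at P2, to 20.4% at P3 and to 15.5% at P4. These shares include the circRNAs whose reads follow single libraries. Chr3:10395392|10399398 alone had 362 and 523 reads in SP2-1 and SP2-2, 0 at P3 and 317 in SP4-3. The shares without such circRNAs were not taken.

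**Figure D2:**
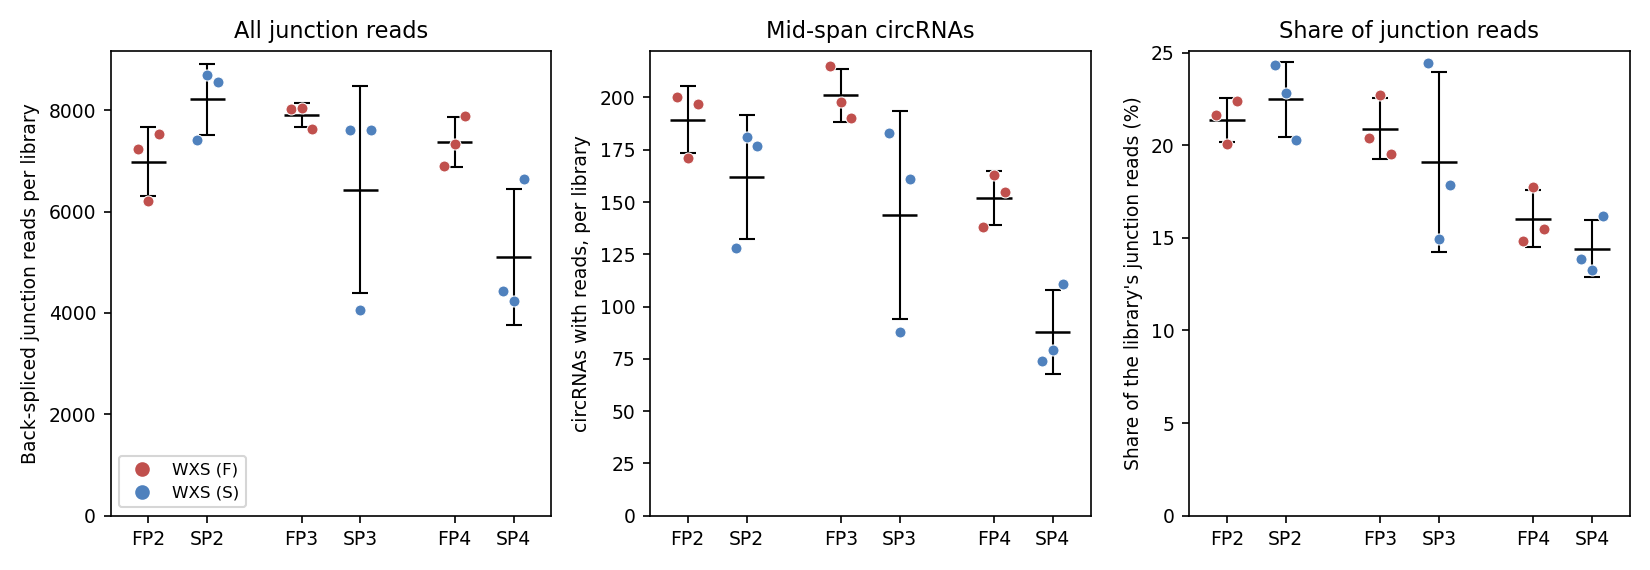
Dots are the 18 libraries, with WXS (F) in red and WXS (S) in blue at each stage, and bars give the mean and SD of 3 libraries. The panels show all junction reads, the mid-span circRNAs with reads, and the share of junction reads in the class, which was 14.83% to 17.77% in FP4 and 13.25% to 16.16% in SP4 and 14.93% to 24.43% in the libraries of P2 and P3.

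Most mid-span circRNAs were seen in both conditions. Reads were found in both for 357 (60.2%), in WXS (F) only for 154 (26.0%) and in WXS (S) only for 82 (13.8%), while WXS (F) libraries held 66789 and WXS (S) libraries 59264 junction reads. These shares were not set against those of the whole table. Most of the circRNAs of 1 condition were rare. Of the 154, 34 had reads in a single library and 50 in at least 3, and of the 82, 37 had reads in a single library and 14 in at least 3. Without the 3 libraries with the lowest totals, which are all from WXS (S), the numbers were 179 in WXS (F) only, 79 in WXS (S) only and 332 in both. A clean split was seen once: Chr9:22408734|22411666 had reads in all 9 WXS (F) libraries and in 0 of 9 WXS (S) libraries, a pattern shown by 3 circRNAs of the whole table, and 0 circRNAs showed the opposite.

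WXS (F) was compared with WXS (S) over all stages with the quasi-likelihood test of edgeR with stage as a covariate, where 3 or more of the 18 libraries held reads. Of the 593 circRNAs, 375 passed this filter. A circRNA was called at a Benjamini-Hochberg adjusted p below 0.05, over the 968 circRNAs tested in the whole table, with a log2 fold change of 1 or more in either direction. Called were 8 mid-span circRNAs (2.13% of those tested), where 3.51% of all circRNAs tested were called. They were 5 higher in WXS (F), against 2.58% of all, and 3 lower, against 0.930% of all. At an unadjusted p below 0.05 with the same fold, 92 were called (24.5%), against 26.9% of all circRNAs tested, with 68 higher (19.4% of all were) and 24 lower (7.44% of all). Under DESeq2 the unadjusted calls were 12 higher and 9 lower. Of the 92, 50 had 0 reads in WXS (S) and 14 had 0 reads in WXS (F), so these met the filter through 1 condition only, and 28 had reads in both. The median log2 fold change was 0.63 over the 375 circRNAs and 0.51 over all tested, and 0.10 over the 375 when the 64 with a condition at 0 were set to the bound that 3 reads per library allow.

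**Figure D3:**
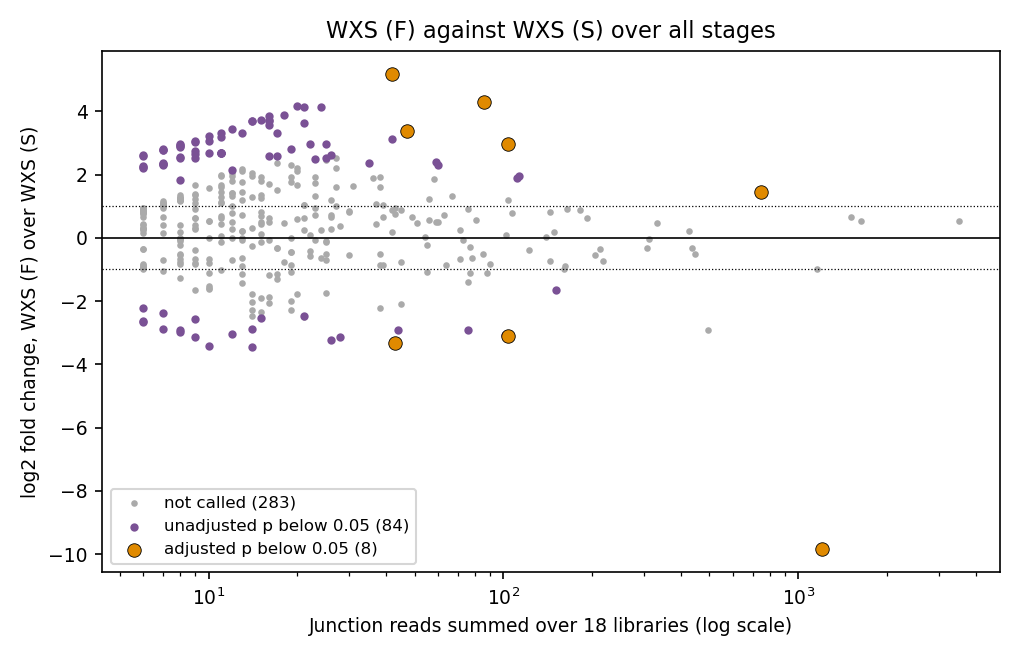
Each point is 1 of the 375 mid-span circRNAs tested over all stages, placed by its junction reads in 18 libraries (log scale) and its log2 fold change, WXS (F) over WXS (S). Orange points are the 8 circRNAs at adjusted p below 0.05, purple points the other 84 at unadjusted p below 0.05, dotted lines mark a log2 fold change of 1 in either direction, and the orange point near -10 is Chr3:10395392|10399398 with reads in 3 libraries.

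Chr9:22408734|22411666 spans 2932 bases. It had 3, 2 and 6 reads in FP2, against 0, 0 and 0 in SP2. It had 11, 2 and 5 reads in FP3, and 6, 2 and 5 in FP4, against 0 in each SP3 and SP4 library. WXS (F) and WXS (S) therefore did not overlap at any stage, although no library held more than 11 reads. The split holds for this ring alone: summed over the 2 circRNAs of its locus, SP3-1 had 2 reads. Against a limit of 3 reads per WXS (S) library it was at least 1.25-fold higher in WXS (F) (edgeR adjusted p = 0.00254). It passed the filter through WXS (F) libraries alone, so this p describes a separation that the filter favours, and with no filter the edgeR adjusted p was 0.00308.

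Chr8:14740998|14745135, with a ring length equal to its interval of 4138 bases, differed most at P2. It had 22, 9 and 17 reads in FP2, against 0, 0 and 0 in SP2. It had 7, 10 and 4 reads in FP3, against 3, 0 and 0 in SP3. It had 3, 9 and 2 reads in FP4, against 0, 0 and 0 in SP4. All FP libraries but none of the SP2 and SP4 libraries held reads, and the groups did not overlap at any stage. Its 83 reads in WXS (F), against 3 in WXS (S), give a ratio of 24.5 per junction read (exact 95% interval 8.11 to 121.0, counting error only), with edgeR adjusted p = 0.00131 over all stages, kept in all 23 alternatives.

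Chr5:3609020|3611174 was the abundant one among those higher in WXS (F). It had 72, 76 and 64 reads in FP2, against 20, 36 and 34 in SP2. It had 55, 83 and 72 reads in FP3, against 32, 8 and 46 in SP3, and 39, 33 and 53 reads in FP4, against 7, 12 and 7 in SP4. Each WXS (F) library was above each WXS (S) library of its stage. Per 10000 junction reads its level was 102 ± 18.8 in FP2 and 36.1 ± 7.92 in SP2, 88.7 ± 18 in FP3 and 40.7 ± 20.4 in SP3, and 56.2 ± 11.2 in FP4 and 18.2 ± 9.18 in SP4 (SD, n = 3 each). The log2 fold change over all stages was 1.46 ± 0.34 (SE, edgeR adjusted p = 0.0136). The adjusted p was 0.324 with no filter on low counts and 0.0611 without the 3 libraries with the lowest totals.

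Chr11:9166935|9170120 had 10, 5 and 11 reads in FP2, against 2, 2 and 0 in SP2. It had 10, 13 and 11 reads in FP3, against 8, 0 and 0 in SP3, and 12, 12 and 8 reads in FP4, against 0, 0 and 0 in SP4. The groups did not overlap in reads at any stage. Its log2 fold change was 2.96 ± 0.70 (SE, edgeR adjusted p = 0.0166), with an adjusted p of 0.0692 without the 3 libraries with the lowest totals. Chr11:9168273|9170120, which ends at the same base and starts 1338 bases downstream, had a smaller log2 fold change of 1.90 ± 0.62 and was not called (edgeR adjusted p = 0.0814); the difference between the pair was not tested. The last circRNA called higher, Chr8:12858088|12862994, had 11, 7 and 6 reads in FP3, against 0, 0 and 0 in SP3 (edgeR adjusted p = 0.0436 over all stages), and the call was kept in 4 of 23 alternatives.

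Of the 3 circRNAs called lower in WXS (F), Chr1:18152219|18153353 was the steadiest. It had 0, 2 and 2 reads in FP2, against 0, 11 and 22 in SP2. It had 0, 4 and 3 reads in FP3, against 33, 3 and 15 in SP3, and 0, 0 and 0 in FP4, against 2, 4 and 3 in SP4. Groups overlapped in reads at P2 and P3 and not at P4, and per 10000 junction reads they did not overlap at P3 either, where the level was at most 4.97 in FP3 and at least 7.38 in SP3. Its log2 fold change was -3.12 ± 0.74 (SE, edgeR adjusted p = 0.0167), and the call was kept in all 23 alternatives. Chr9:20033045|20034127 had 4 reads in WXS (F), against 39 in WXS (S), with 0, 13 and 6 in SP2 and 8, 2 and 5 in SP3 (log2 fold change -3.33 ± 0.92, edgeR adjusted p = 0.0436), a call kept in 7 of 23 alternatives. Chr3:10395392|10399398, described above, was at least 42.8-fold lower in WXS (F) against 3 reads per library (edgeR adjusted p = 0.0166), but its reads came from 3 of 9 WXS (S) libraries. It met the filter of 3 libraries only through these, could not be tested without SP2-1, SP2-2 or SP4-3, and had an edgeR adjusted p of 0.0612 when at least 10 reads were required, so the p-value gives no support for a difference between the conditions.

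**Figure D4:**
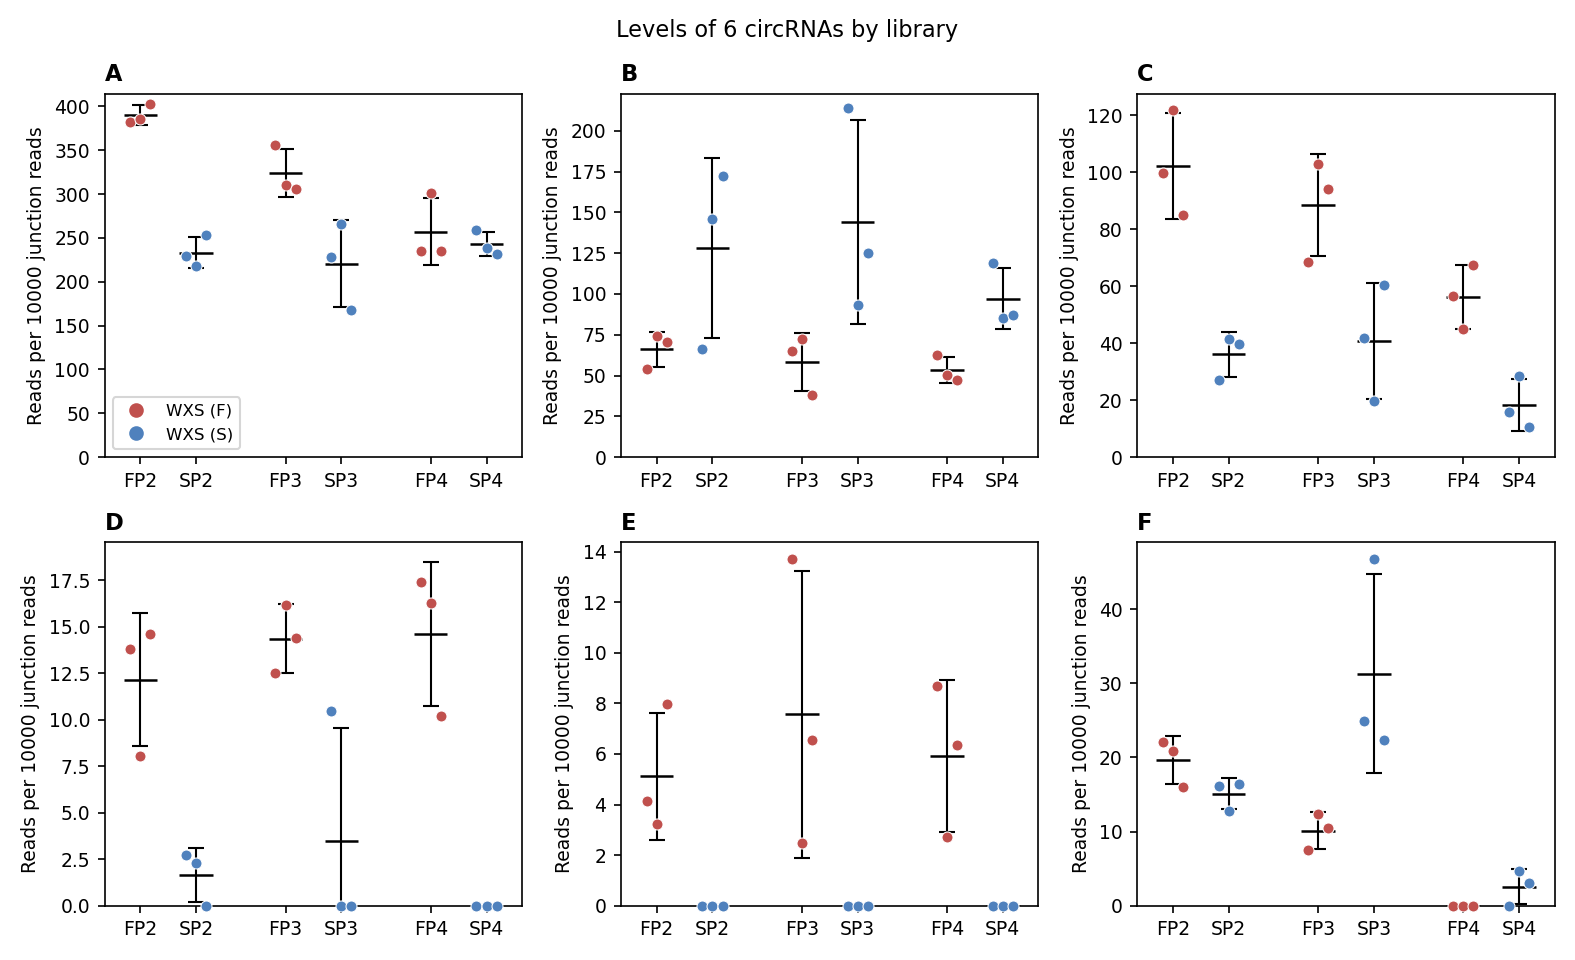
Reads per 10000 junction reads in each library (dots), with mean and SD of 3 libraries, for Chr5:20738743|20740923 (A), Chr5:13387328|13389677 (B), Chr5:3609020|3611174 (C), Chr11:9166935|9170120 (D), Chr9:22408734|22411666 (E) and Chr4:17357355|17358605 (F), with WXS (F) in red and WXS (S) in blue. C lies higher in WXS (F) at each stage, E has no read in WXS (S), and F has 0 reads in FP4 and 0, 2 and 2 in SP4.

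Within a stage the tests used 6 libraries. At P2, 138 mid-span circRNAs had reads in at least 3 of them, and 25 were called at unadjusted p below 0.05 (18.1%; 22.1% of all circRNAs tested), with 17 higher (15.0% of all) and 8 lower (7.11% of all) in WXS (F), or 8 higher and 6 lower under DESeq2. With no filter on low counts the lean turned, to 13 higher and 20 lower. Of the 25, 15 had 0 reads in SP2 and 6 had 0 reads in FP2, so that they met the filter only through the other condition and had to differ, and 4 had reads in both. After adjustment 1 of them was called by edgeR, Chr8:14740998|14745135, at least 6.13-fold higher in FP2 (edgeR adjusted p = 0.031; 2.03% of all circRNAs tested were called). It too was tested only through its reads in FP2, and with no filter its edgeR adjusted p was 0.000242. Its adjusted p was 0.0512 without SP2-3, and without an FP2 library it had reads in too few libraries to be tested. At P3, 148 were tested and 29 called at the unadjusted threshold (19.6%; 21.0% of all), with 18 higher (14.0% of all) and 11 lower (7.01% of all), and 11 of the 29 had reads in both conditions. At P4, 93 were tested and 21 called (22.6%; 21.9% of all), with 17 higher (17.6% of all) and 4 lower (4.32% of all), and 7 of the 21 had reads in both conditions. After adjustment edgeR called 0 at P3 (1.82% of all) and 0 at P4 (1.44% of all), and DESeq2 called 2 at each stage.

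These unadjusted counts lean on each WXS (F) library, since a circRNA without reads in WXS (S) enters the test only through 3 libraries of WXS (F). They were 9, 10 and 9 at P2 without FP2-1, FP2-2 and FP2-3, 9, 8 and 11 at P3 without FP3-1, FP3-2 and FP3-3, and 7, 8 and 8 at P4 without FP4-1, FP4-2 and FP4-3. Groups did not overlap with WXS (F) higher for 23 of the 138 circRNAs at P2 (17.3% of all circRNAs tested), 27 of 148 at P3 (20.5% of all) and 25 of 93 at P4 (26.3% of all). They did not overlap with WXS (F) lower for 8 at P2 (9.39% of all), 8 at P3 (5.97% of all) and 4 at P4 (4.32% of all).

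Unadjusted calls at the stages were made for 61 of 207 circRNAs tested at any stage (29.5%; 31.6% of all circRNAs tested), and 2 of the 61 were called at all 3 stages (3.28%; 5.56% over all circRNAs). These were Chr5:3609020|3611174, with reads in both conditions, and Chr9:22408734|22411666, which at each stage was tested only through its reads in WXS (F). P2 and P3 shared 6 calls (24.0% of those at P2 and 20.7% of those at P3, against 26.4% and 28.4% over all circRNAs). P2 and P4 shared 5 (20% and 23.8%, against 20.7% and 29.5%), and P3 and P4 shared 5 (17.2% and 23.8%, against 22.2% and 29.5%), each with the same sign at both stages. Among circRNAs lower in WXS (F) at more than 1 stage, Chr4:22024210|22025916 had 4, 0 and 0 reads in FP2, against 18, 25 and 10 in SP2, and 5, 5 and 7 reads in FP3, against 17, 6 and 17 in SP3. Chr5:13387328|13389677, with 1160 reads in all 18 libraries, had 39, 46 and 53 reads in FP2, against 49, 127 and 147 in SP2. At P3 it had 52, 58 and 29 reads in FP3, against 163, 38 and 95 in SP3. Its reads overlapped between the groups at P2 and P3, and its log2 fold changes were -1.15 ± 0.38 at P2, -1.14 ± 0.45 at P3 and then -0.71 ± 0.24 at P4 (SE). None of its adjusted p-values passed (0.0886, 0.177 and 0.119 with edgeR).

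The circRNAs with the smallest p at single stages mostly had few reads. At P2 Chr1:19399671|19403270 had 2, 2 and 2 reads in FP2, against 0 in each SP2 library, and Chr12:18343020|18346314 and Chr4:32000830|32002276 had 4, 4 and 2, and 2, 4 and 5 reads in SP2, against 0 in each FP2 library. At P3 Chr4:18988588|18992011 had 10, 3 and 6 reads in FP3, against 0 in each SP3 library, and Chr11:21179447|21180854 had 0 reads in each FP3 library, against 5, 6 and 11 in SP3. At P4 Chr4:24486991|24488625 had 4, 4 and 4 reads in FP4, against 0 in each SP4 library, and Chr8:2814872|2818106 had 0 in each FP4 library, against 2, 2 and 2 in SP4. At counts this low the groups are parted by a few reads, and none passed after adjustment. Chr2:25074361|25075802 stood out by its level: it had 44, 53 and 102 reads in FP4, against 26, 10 and 15 in SP4, or 88.5 ± 35.8 and 34.9 ± 20.5 per 10000 junction reads (SD, n = 3 each; log2 fold change 1.57 ± 0.47, edgeR adjusted p = 0.0804). The scaled groups did not overlap, and the FP4 libraries were its highest.

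Stages were compared over all 18 libraries with the condition as covariate. By detection, 479 mid-span circRNAs had reads at P2, 461 at P3 and 355 at P4, against 4516, 4345 and 3163 of all circRNAs. All 3 stages held reads of 239 (40.3%). Reads were found at P2 only for 66, at P3 only for 49 and at P4 only for 15, and 71 of these 130 had reads in a single library. P3 against P2 gave 39 unadjusted calls (12.5% of all circRNAs tested were called), with 18 higher at P3 (5.68% of all) and 21 lower (6.82% of all). P4 against P3 gave 63 (16.6% of all), with 15 higher at P4 (5.06% of all) and 48 lower (11.6% of all). P4 against P2 gave 51 (18.7% of all), with 11 higher at P4 (6.10% of all) and 40 lower (12.6% of all), and 27 in all without FP4-3. Without the 3 libraries with the lowest totals, P4 against P3 gave 17 higher and 23 lower, and P4 against P2 gave 13 higher and 15 lower, so the lean to lower levels at P4 was smaller there. DESeq2 called 1 higher and 2 lower for P3 against P2, 3 and 9 for P4 against P3, and 1 and 8 for P4 against P2.

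A single circRNA passed the adjusted threshold between stages with edgeR and the filter used here. Chr4:17357355|17358605, whose given ring length equals its interval of 1251 bases, had 16, 13 and 12 reads in FP2, against 12, 11 and 14 in SP2. It had 6, 10 and 8 reads in FP3, against 19, 19 and 17 in SP3, and 0, 0 and 0 in FP4, against 0, 2 and 2 in SP4. It was thus present in all 12 libraries of P2 and P3 and at 0 to 2 reads at P4 in both conditions. The log2 fold change was -4.02 ± 0.71 (SE) for P4 against P2 (edgeR adjusted p = 0.00418; 0.310% of all circRNAs tested were called) and -3.93 ± 0.70 for P4 against P3 (edgeR adjusted p = 0.00917; 0.207% of all). Both calls were kept in all 23 alternatives. Between P3 and P2 edgeR called 0 circRNAs after adjustment (0% of all), and DESeq2 called 1. DESeq2 called 2 for P4 against P3 and 3 for P4 against P2, and edgeR with no filter called 5 and 3.

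Other stage patterns rested on the unadjusted threshold. Chr8:7496155|7499855 had 5, 3 and 4 reads in FP2 and 9, 0 and 0 in SP2, 4, 0 and 7 in FP3 and 5, 0 and 5 in SP3, and 0 in all 6 libraries of P4. Chr12:21568009|21569726 had 2, 4 and 4 reads in FP2 and 8, 0 and 6 in SP2, and 0 in all P4 libraries. Chr2:14954409|14956208 was read mostly at meiosis, with 2, 6 and 5 reads in FP3 and 6, 7 and 3 in SP3, and 2 reads in all 6 libraries of P4. Chr3:30006457|30008701 was read at P4, with 6, 6 and 3 reads in FP4 and 2, 0 and 0 in SP4, and 0 in all P3 libraries, and with 3 reads in FP2-2 at P2. The adjusted p of P4 against P3 was 0.26 for each of Chr8:7496155|7499855, Chr2:14954409|14956208 and Chr3:30006457|30008701 (edgeR).

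The interaction of stage and condition tests whether the difference between WXS (F) and WXS (S) changed with the stage. At unadjusted p below 0.05, 17 of 375 mid-span circRNAs were called (4.53%; 5.17% of all circRNAs tested). After adjustment edgeR called 0 (0.103% of all), and DESeq2 called 0 at either threshold. With no filter edgeR called 2 after adjustment, and with a replicate block also 2. The unadjusted count was 10 without FP4-2, 11 without FP4-3 and 10 without SP4-2.

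Many mid-span circRNAs shared a splice site with another circRNA. A start or an end was shared with some circRNA of the table by 293 (49.4%), against 25.5% of the circRNAs shorter than 1000 bases and 27.0% of those of 5000 bases or more with at least 5 reads; these shares were not tested. Joined by an identical start or end, the 593 formed 534 loci, of which 50 held at least 2 mid-span circRNAs (109 circRNAs, 18.4%), 44 with 2, 5 with 3 and 1 with 6. The ring with the most reads held a median of 65.0% of the locus's mid-span reads (39.5% to 98.9%) and over 75% at 16 loci. With 2 rings, as at 44 of the 50 loci, this share is at least 50% by definition, so the median is no sign of a lead. At Chr3:30220075 the ring spanning 1853 bases had 333 of 364 reads and was found in all 18 libraries, while Chr3:30220075|30221304 had 20 reads and Chr3:30220075|30221601 had 11. At Chr2:4096078 the lead was weaker, with 39, 27 and 6 reads for rings ending at 4099181, 4099312 and 4099175.

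The largest locus held 6 mid-span circRNAs that share their start at base 18152219 of chromosome 1, among 12 circRNAs in all. Chr1:18152219|18153353 had 104 reads (52.5%), Chr1:18152219|18153900 had 44, Chr1:18152219|18156555 had 18, Chr1:18152219|18154752 had 14, and the other 2 had 10 and 8. Each of the 6 had fewer reads in WXS (F) than in WXS (S). Chr1:18152219|18153900 had 0 reads in each FP3 library, against 5, 4 and 7 in SP3, and 0 in each FP4 library, against 2, 2 and 2 in SP4, with an edgeR adjusted p of 0.0709 over all stages. Summed over the 12 circRNAs, the locus had 12, 4 and 5 reads in FP3, against 52, 11 and 43 in SP3, and 7, 0 and 3 in FP4, against 6, 8 and 7 in SP4. Its log2 fold change was -2.01 ± 0.50 (SE, edgeR adjusted p = 0.0186).

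**Figure D5:**
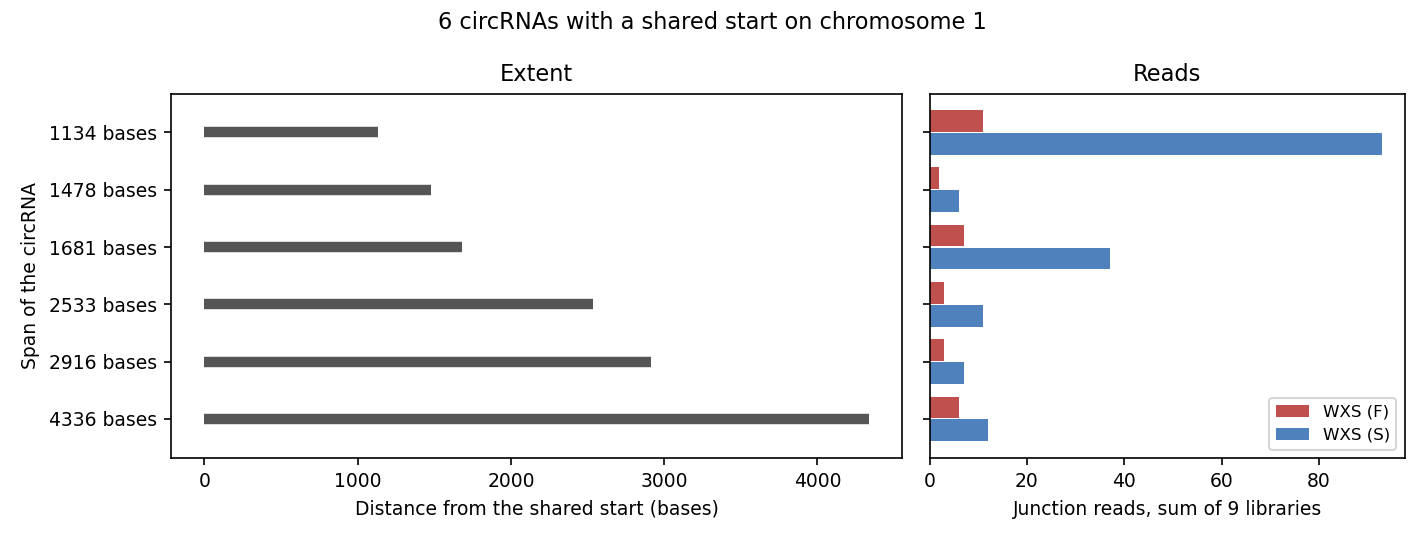
The 6 mid-span circRNAs that share 1 start on chromosome 1, drawn to scale by distance from that start in bases (left), with junction reads summed over the 9 WXS (F) and the 9 WXS (S) libraries (right). The shortest ring had 11 reads in WXS (F), against 93 in WXS (S), and the ring spanning 1681 bases had 7 in WXS (F), against 37 in WXS (S).

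Reads summed over all circRNAs of a locus were tested in the same way. Of 1042 loci tested, 4.32% were called at adjusted p below 0.05, and 16 of the 373 that held a mid-span circRNA (4.29%) were among them. This count was 8 without SP4-3 and 10 without each of FP2-2, FP4-2, SP2-1, SP3-3 and SP4-1. Not all called loci held several circRNAs: Chr3:10395392|10399398, Chr9:20033045|20034127 and Chr5:17926331|17927947 each stood alone. At the locus with the smallest p, the mid-span circRNA Chr5:17018555|17019556 had 8 of 357 reads. The locus of Chr8:14740998|14742258 and Chr8:14740998|14745135 had 24, 9 and 20 reads in FP2, against 0, 0 and 0 in SP2 (log2 fold change 4.55 ± 0.76 over all stages, edgeR adjusted p = 0.000289). The locus of Chr11:21179447|21180854 with 5 circRNAs had 6, 4 and 3 reads in FP2, against 4, 26 and 32 in SP2, and 3, 2 and 3 in FP3, against 10, 19 and 26 in SP3 (log2 fold change -2.14 ± 0.48, edgeR adjusted p = 0.00781). The locus that holds Chr11:9166935|9170120 had 22, 21 and 14 reads in FP4, against 4, 0 and 0 in SP4 (log2 fold change 2.32 ± 0.56, edgeR adjusted p = 0.0149).

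Some neighbours may be the same ring. For 19 mid-span circRNAs another circRNA had both ends within 10 bases, always with 1 end identical. Chr3:24531933|24534136 had 73 reads and Chr3:24531933|24534140 had 21, and Chr4:30632809|30635258 had 182 and Chr4:30632809|30635267 had 7. Reads could have been split between such pairs when they were counted, so their single values are uncertain.

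A host gene could be named for 1 of the circRNAs described. Chr9:10839626|10840970 lies in LOC_Os09g17730. The circRNA had 2, 4 and 6 reads in FP3, against 20, 13 and 13 in SP3, and 13, 17 and 4 reads in FP4, against 10, 9 and 2 in SP4. The groups parted at P3 only, with a log2 fold change of -2.03 ± 0.54 (SE, edgeR adjusted p = 0.121). Counts of the whole gene do not set apart reads from inside the ring. They were 190.9 ± 6.1 CPM in FP3 and 225.0 ± 58.6 in SP3, and 146.5 ± 9.0 CPM in FP4 and 198.9 ± 3.5 in SP4 (SD, n = 3 each). The gene had an edgeR adjusted p of 0.409 at P3, and at P4 a log2 fold change of -0.34 ± 0.06 (SE, edgeR adjusted p = 0.00341), where 52.6% of coding genes passed the adjusted p threshold.

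The remaining circRNAs with designed primers were Chr8:14113159|14114776, described above, and Chr3:30890454|30892999. The circRNA on chromosome 3 had 10, 4 and 6 reads in FP3, against 29, 6 and 19 in SP3, with a log2 fold change of -1.48 ± 0.55 (SE) that passed the unadjusted threshold only (edgeR adjusted p = 0.151). Of the 6 circRNAs with primers, 3 were called higher in WXS (F) over all stages (2.58% of all circRNAs tested were) and 3 were not called. The study drew some of its PCR targets from circRNAs that it had found to differ in these same libraries. The count can thus reflect how the list was made and gives no separate support.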

How the data were processed

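Total RNA of young panicles was depleted of ribosomal RNA and sequenced as strand-specific libraries. The authors mapped clean reads with HISAT2 to MSU v7.0 and searched the unmapped reads with find_circ, using 20-base anchors and at least 2 distinct back-spliced reads. The deposited counts give the reads across each back-spliced junction in each library and the reads of each coding gene, both whole numbers without normalization by the authors. The authors' length of each circRNA stands in the same table. The deposited TPM and FPKM tables and the lncRNA counts were not used here, since the counts were.

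Mid-span circRNAs and all lists were chosen with earlier results of these data known. Counts of the whole table were tested with edgeR 4.0.16 in R 4.3.3 (TMM, quasi-likelihood, Benjamini-Hochberg), among circRNAs with reads in at least 3 libraries of the fit, and calls needed a log2 fold change of 1 or more in size. Coding genes needed 10 counts in 3 libraries. Standard errors were derived from the test statistic and are approximate. The procedure was run on simulated counts with less spread than the 18-library fit, whose common biological coefficient of variation was 1.309. That run therefore does not show how the procedure performs at the spread of these data. Expected numbers at 4066 reads come from a calculation over the counts of each library. Alternatives were DESeq2 1.42.0, no filter, at least 10 reads, all 18 libraries for a stage, a replicate block, the authors' length in place of the span, loci of mid-span circRNAs only, each library left out and, added after seeing the data, the 3 lowest totals left out. CircRNAs named are those called after adjustment, the 10 with the most reads, those with primers, the 3 higher and 3 lower with the smallest p per comparison, the largest loci and those at the borders; not all are described, and the pairs and loci added to these were chosen after their values were seen. Python 3.11.15 with pandas 2.3.3 and matplotlib 3.10.9 was used for other steps. The sequence and genes under the other circRNAs were not analysed here.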

Additional observations from a re-analysis of the deposited data

How the results depend on the processing

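Each single circRNA called after adjustment kept its direction in the alternatives that could test it. The lean of the unadjusted calls at P2 turned, with 13 higher and 20 lower in WXS (F) when no filter was used, and the median log2 fold change there was 0.04, against -0.01 with DESeq2 and -0.05 with at least 10 reads. Counts of calls depended on the settings, and the cause was not tested beyond the smaller number of circRNAs or libraries that a setting leaves. With DESeq2 the adjusted calls of WXS (F) against WXS (S) were 2 at P2, 2 at P3, 2 at P4 and 15 over all stages, and the unadjusted ones 14 at P2, 14 at P3 and 21 over all stages. DESeq2 gave 1 adjusted and 3 unadjusted calls for P3 against P2, 2 and 12 for P4 against P3, 3 and 9 for P4 against P2, and 0 unadjusted calls for the interaction. With at least 10 reads the adjusted calls were 0 at P2 and 5 over all stages, and the unadjusted ones 15 at P2, 18 at P3, 12 at P4 and 20 for P3 against P2. With no filter the adjusted calls were 4 at P2, 3 at P3, 4 at P4, 1 for P3 against P2, 5 for P4 against P3, 3 for P4 against P2 and 2 for the interaction, and the unadjusted ones 20, 35 and 25 for the 3 stage comparisons in the same order.

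Whether equal replicate numbers pair the libraries was not settled. The correlation of deviations between same-numbered WXS (F) and WXS (S) libraries was -0.026 to 0.114 and above 0.1 in 1 of 9 pairs. At P2 each same-numbered pair was above the highest other-numbered one (0.056 against 0.014, 0.114 against -0.048, 0.035 against 0.01). At P3 and P4 this held only for replicate 2 of P3 (0.01 against -0.003). With counts this low, such small correlations cannot decide the question. A replicate block gave 2 adjusted and 11 unadjusted calls at P2, 10 unadjusted at P3, 3 unadjusted at P4, 16 adjusted over all stages, 1 and 13 for P3 against P2, 3 and 27 for P4 against P3, 5 and 20 for P4 against P2, and 2 and 6 for the interaction.

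Without the 3 libraries with the lowest totals there were 5 adjusted calls over all stages, 40 unadjusted for P4 against P3, 28 for P4 against P2 and 9 for the interaction. Reads were then in WXS (F) only for 179 circRNAs and in both conditions for 332.

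When each library was left out in turn, adjusted calls ranged from 0 to 3 at P2, 0 to 1 at P4 and 6 to 9 over all stages, and stayed 0 at P3, 0 for P3 against P2, 1 for P4 against P3 and 1 for P4 against P2. Unadjusted calls ranged from 9 to 26 at P2, 8 to 26 at P3, 7 to 20 at P4, 81 to 99 over all stages, 29 to 39 for P3 against P2, 44 to 65 for P4 against P3, 27 to 54 for P4 against P2 and 10 to 16 for the interaction. Called loci with a mid-span circRNA ranged from 8 to 13, and were 32 when loci were built from mid-span circRNAs only.

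The class itself held 278 circRNAs at a minimum of 10 reads and 292 by the authors' length. Reduced to 4066 reads, a library held 178.6 circRNAs in FP3 and 137.3 in FP4. With counts under 2 reads also set to 0, it held 123.87 in FP2, 98.33 in SP2, 120.77 in FP3, 104.47 in SP3, 94.63 in FP4 and 72.33 in SP4. Low counts limit precision, with 5 to 9 reads in 18 libraries for 53.1% of the circRNAs, a share that the minimum of 5 reads also shapes.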
